A study of Mus musculus and Homo sapiens with 22 samples.

Results

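Of the 25456 m6A sites listed for mouse embryonic stem cells (mESCs), 636 lay in the 5′ UTR of the longest coding transcript of their gene, on the same strand and at least 3 nt from the start of any annotated transcript. They were spread over 438 genes and made up 2.50% of the list, against 12109 sites in coding sequences (CDS) and 11493 in 3′ UTRs assigned in the same way. The sites came from miCLIP2, in which an m6A antibody is crosslinked to poly(A)+ RNA and reverse transcription stops next to the bound base, and were scored by m6Aboost, a classifier trained on the signal lost in cells without the methyltransferase Mettl3. The study profiled 4 WT and 4 Mettl3 KO mESC miCLIP2 libraries (in each genotype, 2 of the 4 are technical repeats of 1 replicate), HEK293T cells and mouse heart, and sequenced RNA from 3 WT and 3 Mettl3 KO mESC samples. The single mESC list was made from the WT libraries together, so that it holds 1 score per site and no value per replicate.

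The RNA-seq samples were WT mESCs and Mettl3 KO mESCs, all cultured with serum and LIF and with no further treatment. Both lines came from earlier work, and the number of KO clones is not given in the sources used here, so a difference between KO and WT is a difference between these lines. The heart samples were purchased mouse heart RNA of unstated strain and age, and the list from 1 µg of it served for comparison with another tissue. Gene counts were 22746733 to 27254245 per RNA-seq library. Pou5f1, Sox2, Nanog, Esrrb, Zfp42 and Dppa5a, which mark mESCs, had 118 CPM (counts scaled to the library total) or more in every library. Dppa5a was lower in KO, with a mean of 298 CPM against 957 CPM in WT. Its log2 difference was −1.68 (adjusted p = 2.25e-05 by edgeR's quasi-likelihood test), and the others did not pass an adjusted p of 0.01. The targeted gene itself, Mettl3, had 26.4, 26.6 and 28.9 CPM in WT and 18.4, 22.6 and 16.9 CPM in KO. The KO values lay below the WT values without overlap, and the difference in log2 was −0.50 (SE 0.14, adjusted p = 0.0134 by edgeR's quasi-likelihood test). Transcript of Mettl3 was thus still counted in KO cells, and its level is a weak check of the labels. The summed level of the 4 of 9 feeder fibroblast markers that were tested was 10.6 to 14.6 CPM in WT and 13.3 to 13.8 CPM in KO, with 1 of them (Thy1) higher and 1 (Pdgfrb) lower. That of the 5 of 7 primitive endoderm markers tested was 6.29 to 9.39 CPM in WT and 33.7 to 46.9 CPM in KO, with 2 of them higher and 1 (Gata4) lower, while Sox7 and Sox17 were under the filter on low counts. The part of such cells in the results below was not tested, and in bulk RNA more cells of a type cannot be told apart from more RNA per cell.

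N6-methyladenosine is laid down on nuclear mRNA by the METTL3–METTL14 complex at DRACH motifs. These consist of an A followed by C, preceded by A or G and before that by A, G or T, and closed by A, C or T. Most m6A of mRNA lies in long internal exons and around the stop codon, and the exon junction complex keeps it away from splice junctions. In the 5′ UTR, m6A has been linked to translation that does not depend on the cap-binding complex, through eIF3 and ABCF1. The same antibody also recognises m6Am, a separate modification placed by PCIF1 on the first transcribed A next to the cap, which is why sites at transcript starts were set apart.

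The sequences of 6 of the 10 sites with the highest score show the motif in its setting. Each is given as 21 nt of the transcript strand (RefSeq sequence of GRCm38), 5′ to 3′, with the site at the centre of the 5 nt in capitals.

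Csnk1g2 (chr10:80634441-80634461, plus strand): ggtaccacAAACTtatggatt
Cdk12 (chr11:98203144-98203164, plus strand): gtgccgagGAACTcttggttt
Ddx6 (chr9:44607309-44607329, plus strand): agcctcatAAACTgttattac
Slmap (chr14:26533882-26533902, minus strand): aaacacaaGAACTggtgtgtg
Srsf2 (chr11:116853008-116853028, minus strand): acccacgaGGACTgtagctac
Fuca1 (chr4:135920786-135920806, plus strand): tgggctgtGGACTctgggatg

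Csnk1g2 encodes a casein kinase 1 isoform, Slc20a2 a phosphate transporter, Fgfr1 an FGF receptor, Cdk12 a kinase of RNA polymerase II, Ddx6 an RNA helicase of mRNA decay, Srsf2 an SR splicing factor, Fuca1 a lysosomal fucosidase and Sap30 a subunit of the Sin3 deacetylase complex. The remaining sites of these 10 were in Slmap and in Fem1c, a substrate receptor of a ubiquitin ligase. In all 6 the capitals end in ACT. The Csnk1g2 site, with a score of 0.830 the highest of all 636, was 4 nt upstream of the start codon, which is visible as atg in its window. Of these 10 sites, 9 were also listed at the same base in heart. The exception was Sap30, with a score of 0.812.

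Over all 636 sites, 597 (93.9%, 95% Wilson interval 91.7 to 95.5%) were in a DRACH motif. The share was 93.2% (92.8 to 93.7%) in CDS and 92.4% (91.9 to 92.8%) in 3′ UTRs. The sequence around a site is an input of the classifier, so that the level of these shares is partly built in. GGACT was the most frequent motif and made up 37.7% (34.1 to 41.6%) of the 5′ UTR sites, 23.4% (22.6 to 24.1%) of CDS sites and 21.4% (20.7 to 22.2%) of 3′ UTR sites. GAACT followed with 14.2%, AGACT with 9.91%, GGACC with 8.96%, TGACT with 8.18% and GGACA with 7.08%. GGACA was less represented than in CDS, where it reached 12.7% (12.1 to 13.3%), against an interval of 5.33 to 9.34% in 5′ UTRs. Among the 39 sites outside DRACH, 30 were GGACG. That motif took 4.72% (3.32 to 6.65%) of 5′ UTR sites, 2.68% (2.40 to 2.98%) of CDS sites and 1.37% (1.17 to 1.6%) of 3′ UTR sites. Counted over 50 nt on either side, the 5′ UTR sites had a median GC content of 62.4%. GGACT was also more common among the DRACH motifs of 5′ UTRs than of CDS, marked or not. In genes of at least 5 CPM in WT, GGACT was 2850 of 34795 DRACH motifs in 5′ UTRs and 21860 of 394814 in CDS. Intervals cover counting error only, and sites of 1 transcript are not independent.

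The sites lay closer to the start codon than to the cap. Their distance from the transcript start had a median of 288 nt (interquartile range 158 to 537 nt), and their distance to the start codon a median of 156.5 nt (72.8 to 311 nt). Relative to the length of the 5′ UTR, the median position was 0.665, where 0 is the transcript start and 1 the start codon. The 5′ UTRs that held them were long. Over the 438 genes the median 5′ UTR length was 455.5 nt (interval of the median 413 to 479 nt), against 177 nt (173 to 181 nt) for 9509 other coding genes of at least 5 CPM in WT, and 183 nt for genes with sites in CDS or 3′ UTR only. A longer 5′ UTR offers more positions, and the gene set was defined by holding a site there.

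**Figure D1:**
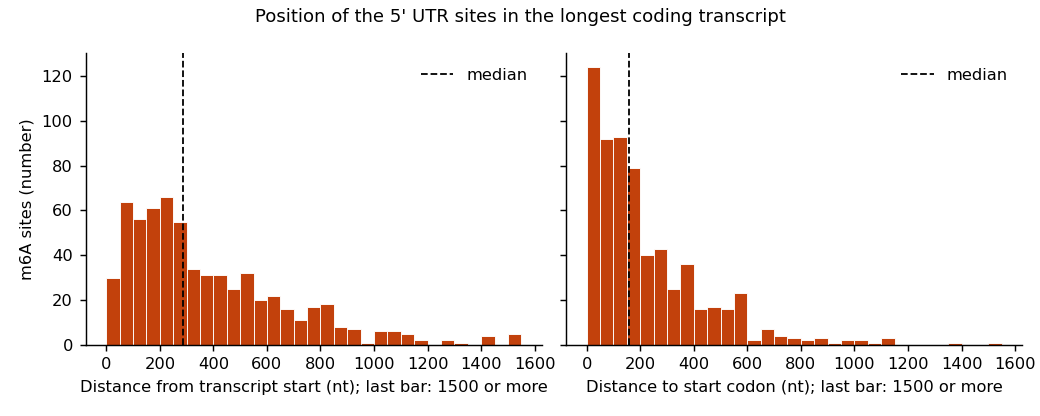
Number of 5′ UTR sites in bins of 50 nt by their distance from the transcript start (left) and to the start codon (right), along the spliced longest coding transcript. Dashed lines mark the medians of 288 and 156.5 nt, and the fullest bin is the one next to the start codon.

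Most sites were in the exon that holds the start codon, with 527 of 636 (82.9%, 79.7 to 85.6%). A further 91 (14.3%) were in the first exon of transcripts whose start codon lies further downstream, and 18 (2.83%) were in internal exons of the 5′ UTR. Genes with at least 5 CPM in WT had 59.7% (59.2 to 60.3%) of their 5′ UTR DRACH motifs in the exon of the start codon. Motifs under 3 nt from any transcript start were not counted. The exons were long, with a median of 664 nt, and the 605 sites in spliced transcripts had a median distance of 278 nt (144 to 485 nt) to the nearest splice junction. The 5′ UTR label held in every coding transcript of the gene that contains the site for 616 sites. The other 20 were coding in another isoform, among them 3 sites in each of Adar, which encodes an RNA-editing deaminase, and Rbm6. Upstream open reading frames contained 178 sites (28.0%, 24.6 to 31.6%), and such frames held 31.9% (31.4 to 32.4%) of the DRACH motifs of the 5′ UTRs.

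Over whole regions, the share of DRACH motifs that carried a site was lowest in 5′ UTRs. In 5′ UTRs only, motifs under 3 nt from a transcript start were left out. Among genes with at least 5 CPM in WT, 596 of 34795 motifs in 5′ UTRs carried a listed site (1.71%, 1.58 to 1.86%), sites in several genes included. In CDS this was 11227 of 394814 motifs (2.84%, 2.79 to 2.90%) and in 3′ UTRs 10600 of 335804 (3.16%, 3.10 to 3.22%). The order of the 3 regions was the same with a minimum of 1 CPM (1.38, 2.44 and 2.7%), with 50 CPM (2.94, 3.59 and 4.60%) and with GGAC motifs of DRACH only (3.65, 6.56 and 9.37%). The region is also an input of the classifier, and the list gives no read depth per motif, so a motif without a site may be unmodified or undetected.

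The share depended on the motif. In 5′ UTRs GGACT carried a site in 8.35% of 2850 motifs (7.39 to 9.42%), GAACT in 4.70% of 1956, AGACT in 2.83% of 2122, TGACT in 2.73% of 1903, GGACA in 1.78% of 2647 and GGACC in 1.47% of 3882. None of 1747 AAACA, 1620 AAACC, 1690 TGACA or 2037 TGACC motifs carried one. In CDS the shares were 12.8% for GGACT, 7.87% for GAACT, 6.52% for AGACT and 3.58% for GGACC. The leading motifs were thus the same in both regions, at lower shares in the 5′ UTR.

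The share also depended on the distance to splice junctions. Within 50 nt of a junction, 0.394% (0.280 to 0.552%) of 5′ UTR motifs and 0.507% (0.478 to 0.538%) of CDS motifs carried a site, intervals that overlap. From 200 to below 300 nt the share was 2.39% (1.97 to 2.89%) in 5′ UTRs and 12.1% (11.6 to 12.7%) in CDS. Over all distances from 200 nt it was 2.6% (2.35 to 2.88%) and 9.05% (8.83 to 9.27%). In transcripts without an intron it was 3.29% (2.27 to 4.74%) in 5′ UTRs and 11.8% (10.6 to 13.1%) in CDS. The 2 regions were thus close to each other next to junctions and far apart away from them. In 3′ UTRs the share from 200 nt was 2.83% (2.77 to 2.88%), an interval that overlaps that of 5′ UTRs. At 500 nt or more it was 1.87% (1.82 to 1.92%) in 3′ UTRs, below the 2.58% (2.17 to 3.06%) in 5′ UTRs.

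**Figure D2:**
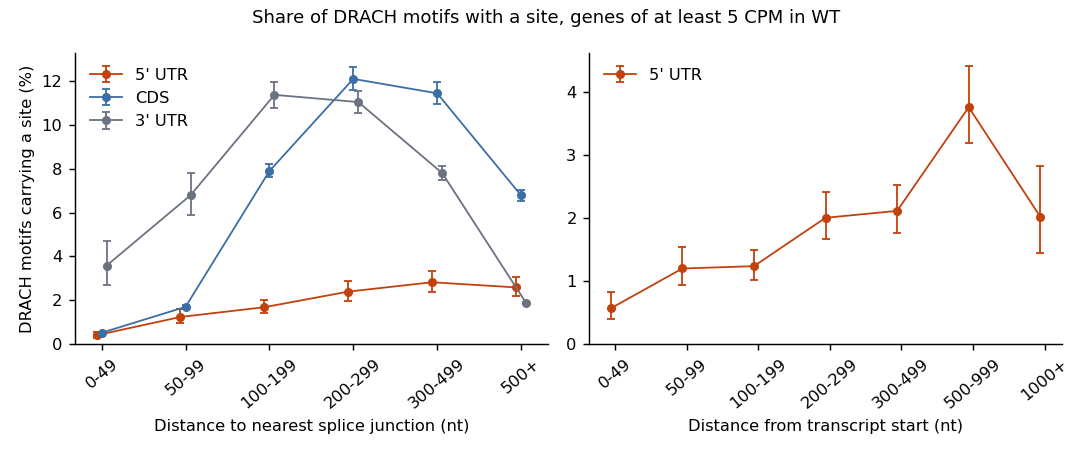
Percentage of DRACH motifs that carry a site, by distance to the nearest splice junction for 5′ UTR, CDS and 3′ UTR (left) and by distance from the transcript start for the 5′ UTR (right). Points are shares and bars 95% Wilson intervals; the 5′ UTR stays below 3% where CDS reaches 12.1%, and rises from 0.564% next to the transcript start to 3.76% between 500 and 1000 nt, with 2.02% beyond.

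Near the cap few motifs were marked. Within 50 nt of the transcript start 27 of 4785 motifs carried a site (0.564%, 0.388 to 0.820%), from there to 100 nt 1.2%, between 200 and 300 nt 2%, and between 500 and 1000 nt 3.76% (3.2 to 4.42%). Beyond 1000 nt it was lower again, with 33 of 1634 motifs (2.02%, 1.44 to 2.82%). By distance to the start codon the share stayed between 1.58 and 2.03% from 1 to 1000 nt and was 0.496% (0.252 to 0.976%) beyond. In the exon of the start codon 2.35% (2.16 to 2.57%) of motifs were marked, in a separate first exon 0.837% (0.679 to 1.03%) and in internal 5′ UTR exons 0.554% (0.359 to 0.854%). With only motifs at least 100 nt from a junction, the exon of the start codon had 2.82% (2.56 to 3.11%) and the separate first exon 1.01% (0.784 to 1.3%). Internal exons then had 9 marked motifs of 289 (3.11%, 1.65 to 5.81%). Motifs inside upstream open reading frames had 1.56% (1.34 to 1.81%) and those outside 1.79% (1.63 to 1.96%), intervals that overlap.

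The sites nearest to the start codon fell into its sequence context. Translation starts preferentially at AUGs with a purine 3 nt upstream, the main element of the Kozak context, and 6 sites were at exactly this base, all in GGACC directly before the ATG. They were in Gnaz (a G protein alpha subunit), Mbtps1 (the site-1 protease that processes SREBP and ATF6), Spns1 (a lysosomal transporter), Sox11 (a transcription factor), Ung (uracil-DNA glycosylase) and Fgd1 (an exchange factor for CDC42). A further 2 sites, in Sipa1l2 and Dolk (dolichol kinase), were at the A 2 nt upstream, where the A of the ATG closes the motif. The windows of 6 of these 8 sites show the start codon as the 3 letters atg that follow or overlap the capitals.

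Gnaz (chr10:74991405-74991425, plus strand): ctgctgccGGACCatgggatg
Spns1 (chr7:126377070-126377090, minus strand): ttccccagGGACCatggccgg
Sox11 (chr12:27342401-27342421, minus strand): cccgccgcGGACCatggtgca
Ung (chr5:114131216-114131236, plus strand): gctcggctGGACCatgggcgt
Fgd1 (chrX:151047662-151047682, plus strand): ccaggcccGGACCatgcatgg
Dolk (chr2:30286023-30286043, minus strand): agacctagAGACAtgacccga

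Of 81 GGACC motifs placed directly before a start codon in genes with at least 5 CPM in WT, 6 carried a site (7.41%, 3.44 to 15.2%), against 1.47% (1.14 to 1.90%) of all GGACC motifs in 5′ UTRs. At the same position 0 of 17 GGACA and 0 of 9 GGACT motifs did. Over all DRACH motifs there the share was 6 of 380 (1.58%, 0.726 to 3.4%), within the interval of the motifs 4 to 50 nt before a start codon (1.79%, 1.49 to 2.15%). This position was noticed in the list of the nearest sites and then counted, so that it is a description. The scores of the 8 sites ranged from 0.520 (Fgd1) to 0.702 (Gnaz), and those in Mbtps1, Sipa1l2 and Dolk were also listed in heart. The Ung site was also 3 nt from an annotated transcript start and the Spns1 site 15 nt.

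At the other end, 27 sites (4.25%) were 3 to 9 nt from an annotated transcript start of some isoform, 93 (14.6%) 10 to 49 nt and 516 (81.1%) 50 nt or more. Nearest to the start of their own transcript were sites in Frmd4b (3 nt), Rpl37a (8 nt, a ribosomal protein gene), Rprd1a (10 nt), Vps41 (10 nt) and Mif4gd (11 nt). The Mif4gd window is gggtggacGGACTggaaacgc (chr11:115612482-115612502, minus strand). DRACH shares were alike over the 3 distance classes, with 96.3, 93.5 and 93.8%. The share also found in heart was 18.5% (8.18 to 36.7%) in the nearest class, 29.0% (20.8 to 38.9%) in the middle and 47.5% (43.2 to 51.8%) in the farthest. The share was thus higher with distance from a start, and the intervals of the middle and farthest classes do not overlap.

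Most genes had few sites in their 5′ UTR. Of the 438 genes, 313 had 1 site, 82 had 2 and 43 had 3 or more. Brd2, which encodes a BET bromodomain protein that binds acetylated histones, led with 9 sites, followed by St3gal2 (a sialyltransferase) with 7 and Ptp4a3 (a phosphatase) with 6. Rnf168 (a ubiquitin ligase of the DNA damage response), Morc2a and Irf2bpl had 5 each. Trim71 (a repressor of mRNA translation in stem cells), Mbtps1, Hexim1 (an inhibitor of P-TEFb) and Ep300 (a histone acetyltransferase) had 4 each and the highest scores among genes with that number. The 9 Brd2 sites all lay in the second exon of its transcript, 40 to 1093 nt upstream of the start codon in a 5′ UTR of 1708 nt, with scores of 0.526 to 0.689. They are shown from the cap side to the start codon, to let their motifs be compared.

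Brd2 (chr17:34119714-34119734, minus strand): gctccgtcAGACCtggaggtg
Brd2 (chr17:34119533-34119553, minus strand): acgccttgGAACTggagtttg
Brd2 (chr17:34119502-34119522, minus strand): cttcgagcGGACCaataggaa
Brd2 (chr17:34119288-34119308, minus strand): agcctctaGGACGagctggag
Brd2 (chr17:34119200-34119220, minus strand): ttggaaatGGACTtcgtcccg
Brd2 (chr17:34119168-34119188, minus strand): ctcccggcGGACAgtgcagac
Brd2 (chr17:34118906-34118926, minus strand): agtttcggGGACTgccgggtt
Brd2 (chr17:34118890-34118910, minus strand): gggtttgcAGACTgcgttctc
Brd2 (chr17:34118661-34118681, minus strand): ggctacccGGACTtcacgcag

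GGACT occurred 3 times among them, and the remaining 6 each had another motif, among them GGACG, which is outside DRACH. Of the 9 Brd2 sites, 6 were also in the heart list. In Trim71 the 4 sites lay 169 to 319 nt before the start codon of a 5′ UTR of 1252 nt, with scores of 0.674 to 0.784, and none was in the heart list. In Mbtps1 all 4 were in the heart list, among them the site at the base 3 nt before the start codon. Over all genes, 144 of the 636 sites (22.6%) had another 5′ UTR site of the list within 50 nt.

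**Figure D3:**
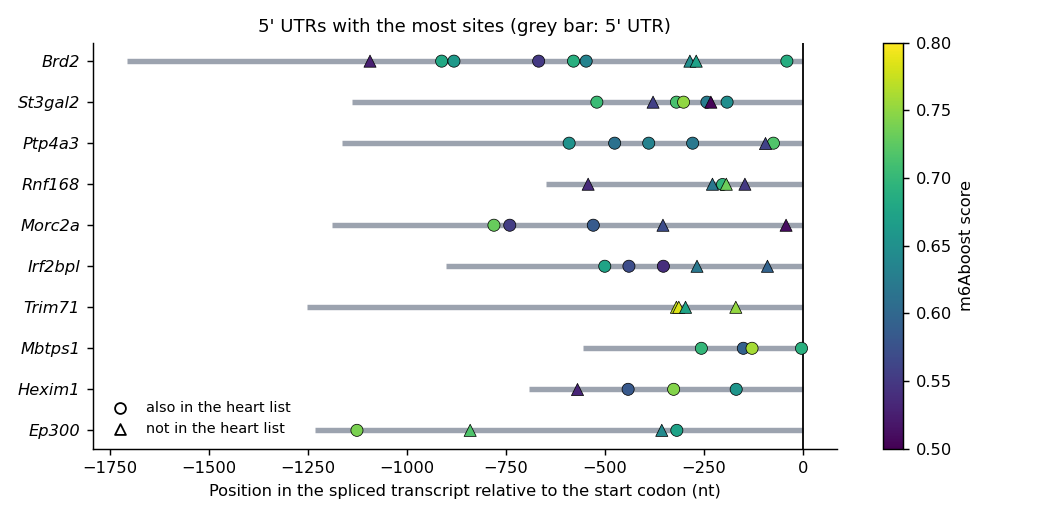
Sites in the 5′ UTRs of the 10 genes with the most sites, by position relative to the start codon in nt; grey bars show the length of the 5′ UTR, colour the m6Aboost score and circles the sites also listed in heart. The 9 Brd2 sites lie 40 to 1093 nt before the start codon of its 1708-nt 5′ UTR, while the 4 Trim71 sites are gathered 169 to 319 nt before the start codon.

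In most of the genes the 5′ UTR was not the only marked region. CDS sites were present in 278 of the 438 genes (63.5%) and 3′ UTR sites in 250 (57.1%). In 82 genes (18.7%, 15.4 to 22.6%), with 111 sites, the 5′ UTR was the only region of the longest coding transcript with a site. Ptp4a3, with 6 sites, was among them, as were Gsk3b (a kinase of Wnt signalling), Eed (a subunit of Polycomb repressive complex 2) and Srsf7 (an SR splicing factor, whose site is coding in another isoform).

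Scores were lower in 5′ UTRs than elsewhere. The median score was 0.618 (interval of the median 0.608 to 0.627) for 5′ UTR sites, 0.710 (0.707 to 0.713) for CDS and 0.795 (0.792 to 0.798) for 3′ UTRs. No 5′ UTR site passed 0.830, while CDS and 3′ UTR sites reached 0.991 and 1.00. With a minimum score of 0.75, 56 of the 636 sites were left. Within the 5′ UTR, sites in DRACH had a median of 0.621 and those outside 0.574. Sites also listed in heart had a median of 0.656 (0.639 to 0.673) and the others 0.587 (0.578 to 0.595). The classifier takes the region as an input, so that scores are not compared as methylation levels.

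**Figure D4:**
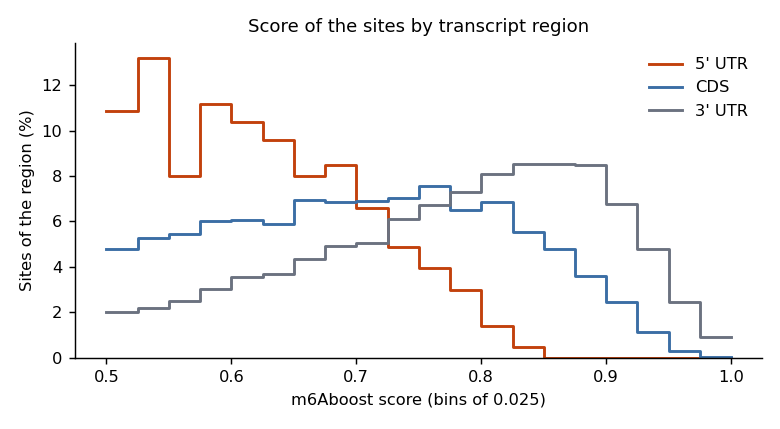
Distribution of m6Aboost scores by transcript region, as the percentage of a region's sites in bins of 0.025. The 5′ UTR curve is highest near the list's minimum of 0.5 and ends at 0.830, whereas the 3′ UTR curve peaks above 0.8.

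In heart, 277 of the 636 sites (43.6%, 39.8 to 47.4%) were listed at the same base and strand with 1 µg of RNA, against 59.3% (58.4 to 60.2%) of CDS sites and 62.3% (61.4 to 63.2%) of 3′ UTR sites. Restricted to genes with at least 1 heart site, the shares were 51.3% (47.1 to 55.5%), 69.4% (68.5 to 70.3%) and 70.1% (69.2 to 71.0%). With the list from 300 ng of heart RNA (by the methods; the sample label reads µg) they were 16.0% (13.4 to 19.1%), 18.5% (17.8 to 19.2%) and 19.4% (18.7 to 20.1%), and the intervals of 5′ UTR and CDS overlapped. The difference between the regions was therefore seen with the 1 µg list and was not resolved with the smaller one. The mESC and heart lists come from the same classifier, with sequence and region as inputs, so that these shares are partly built in. Each heart list is 1 sample. Allowing 2 nt between sites gave no additional match.

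No 5′ UTR site was in any of the 8 m6A writer genes, 15 genes of eIF3 and Abcf1, or 16 heat shock genes tested, while 7, 10 and 9 of them had a site somewhere in the transcript. Across all 13449 coding genes tested, 437 (3.25%) had a 5′ UTR site. That share of a list of 8 to 16 genes is less than 1 gene, so that an absence from these lists says little. Among regulators of m6A, the demethylase gene Alkbh5 had a site 26 nt before its start codon (score 0.691, gccgcggaGGACCctagagtt at chr11:60538387-60538407, plus strand) that was also in heart, and the reader gene Igf2bp3 had 1 site. Pluripotency genes with sites were Klf4 (a reprogramming factor), Tbx3 and Fgf4, 3 of 22. Chromatin regulators were Brd2, Ep300, Eed, Kdm5a and Rest, 5 of 55. Wnt genes were the receptors Fzd5 and Fzd7 and the kinase Gsk3b, 3 of 27. Cell cycle genes were Cdk2, Cdkn1b and E2f1, 3 of 26. Initiation factors were Eif4g3 and Eif5, 2 of 21, and genes of the stress response were Ppp1r15b and Sesn2, 2 of 12.

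In Mettl3 KO cells, the share of genes with 5′ UTR sites that changed was close to that of all genes that passed the filter on low counts. Of 437 tested, 138 (31.6%) had an adjusted p of at most 0.01 in edgeR's quasi-likelihood test over all 15731 genes, where 29.7% were called. Of these, 76 rose (17.4%, against 17.1% of all genes) and 62 fell (14.2%, against 12.6%). Their median log2 fold change (KO over WT) was −0.02, as was that of all genes. For the 5931 tested genes with sites in CDS or 3′ UTR only, 31.7% were called and the median was 0.00. The median level in WT was 61.9 CPM for genes with 5′ UTR sites and 48.3 CPM for those with other sites. In a further fit, samples of the same replicate number were taken as pairs, which the labels do not state. With the replicate as a block 214 of the 437 genes were called (49%, against 43.5% of all genes), 109 higher and 105 lower. Without WT replicate 1 the count was 84 (19.2%, against 19.1% of all genes) and without KO replicate 1 it was 80 (18.3%, against 17.1%). Scaled by library size alone, 89 genes were higher and 35 lower, and the median of all genes moved from −0.02 to 0.085, so directions are relative to the typical gene.

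Calls in the 81 tested genes whose only sites were in the 5′ UTR were mostly to the lower side. Of these, 23 fell (28.4%, against 12.6% of all genes) and 5 rose (6.17%, against 17.1%). Their median log2 fold change was −0.30, with an interquartile range of −0.48 to 0.01. The 3673 coding genes of at least 5 CPM with no site had 19.0% lower and 11.8% higher, with a median of −0.15. Scaled by library size alone, 14 were lower and 5 higher, with a median of −0.20. Without WT replicate 1, KO replicate 1 or KO replicate 3, 12 were lower and 5 higher, without KO replicate 2 14 and 5, and with the replicate block 34 and 9. The difference between these sets was not tested.

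Fgf10, Spry2 and Vegfa were among the called genes with the 10 lowest log2 fold changes. Fgf10, a ligand of FGF receptors, had 12.5, 6.47 and 21.2 CPM in WT and 2.63, 1.22 and 3.14 CPM in KO (log2 −2.52, SE 0.44, adjusted p = 0.00125). The WT samples spread more than 2-fold and WT replicate 2 was lowest, as was KO replicate 2, but the groups did not overlap. The only Fgf10 site, 13 nt from the transcript start, was tttccaagGGACTtggaggtg (chr13:118714702-118714722, plus strand). Spry2, a feedback inhibitor of receptor tyrosine kinase signalling, had 51.8, 61.7 and 72.0 CPM in WT and 22.1, 23 and 18.5 CPM in KO (log2 −1.55, SE 0.15). Vegfa, the angiogenic growth factor, had 173, 162 and 142 CPM in WT and 76.9, 82.6 and 76.7 CPM in KO (log2 −1.01, SE 0.11). All KO samples of these genes were below all WT samples, as the rule that named them required.

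Another 6 of the 10 lowest were B4galt6 (log2 −1.44, a glycosphingolipid synthase), Jam2 (−1.44, a junctional adhesion molecule), Prkaca (−1.16, the catalytic subunit of protein kinase A), Armcx2 (−1.11), Acp6 (−1.04, a lysophosphatidic acid phosphatase) and Spint2 (−0.98, a protease inhibitor), with SEs of 0.10 to 0.19 and adjusted p from 2.3e-05 to 0.00105. Except for B4galt6, these genes had no CDS or 3′ UTR site in their longest coding transcript. Jam2 had 180, 228 and 227 CPM in WT and 68.6, 96.4 and 69.6 CPM in KO. Prkaca had 95.4, 91.5 and 100.3 CPM in WT and 43.0, 45.7 and 39.7 CPM in KO. Sites of genes that fell and had no other marked region of the longest coding transcript are shown for comparison with the high-scoring sites above.

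Jam2 (chr16:84774251-84774271, plus strand): caaaagaaGGACTgtcccaga
Armcx2 (chrX:134806890-134806910, minus strand): tggatcagAGACTcactccag
Acp6 (chr3:97159024-97159044, plus strand): ctccggccTGACTgtcgctgg
Acp6 (chr3:97159097-97159117, plus strand): gttcccgcGAACTtctgagta
Spint2 (chr7:29281837-29281857, minus strand): gagtccagGGACCgtgttggg

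With scores of 0.514 to 0.716 these sites were below the 10 highest, and only the Armcx2 site was also in heart. Jam2 had a further listed site 2 nt from an annotated transcript start, which was set apart by the rule.

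A4galt and H1f0 had the highest log2 fold changes of the called genes. A4galt, the synthase of the glycolipid Gb3, had 40.4, 56.4 and 48.4 CPM in WT and 246, 268 and 224 CPM in KO (log2 2.34, SE 0.14). H1f0, the linker histone of differentiating cells, had 28.4, 22.1 and 36.4 CPM in WT and 149.7, 124 and 151.7 CPM in KO (log2 2.29, SE 0.17). Pelo, a factor that rescues stalled ribosomes, had 5.24, 5.71 and 5.58 CPM in WT and 21.2, 21.9 and 17.0 CPM in KO (log2 1.86, SE 0.16), and shares exon bases on its strand with the gene model Gm49395. KO samples were above WT samples in each case, as the rule that named these genes required. The remaining genes of the 10 highest were Chpf (1.87, a chondroitin synthase subunit whose site is coding in another isoform), Fam110b (1.86), Ajuba (1.34, a LIM protein of cell contacts), Arf6 (1.32, a GTPase of membrane traffic), Trim8 (1.26, a ubiquitin ligase), Lurap1l (1.23) and Tor1aip2 (1.22, an activator of torsin ATPases), with SEs of 0.10 to 0.20. Adjusted p over these 10 genes ran from 3.2e-06 (A4galt) to 0.000814 (Lurap1l). All but Lurap1l also had sites in CDS.

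**Figure D5:**
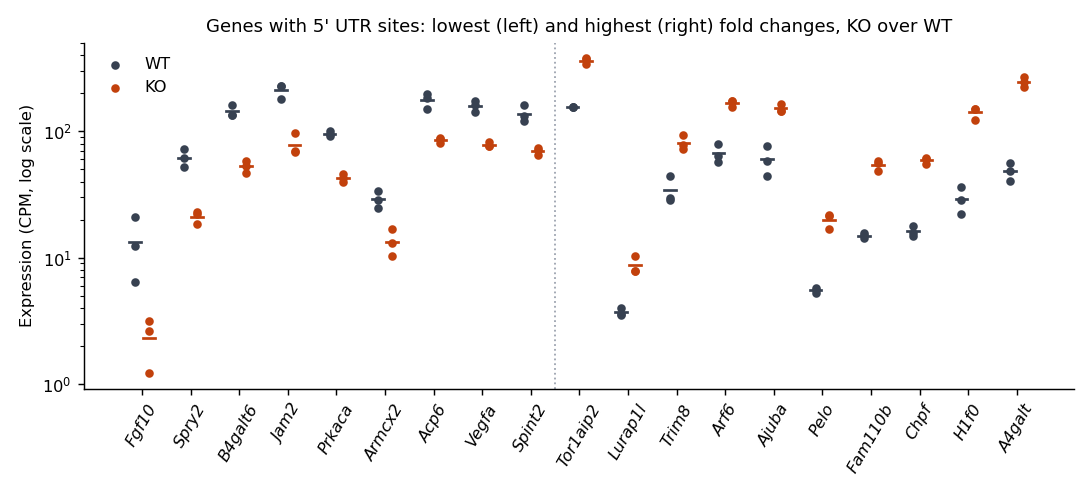
Expression in CPM (log scale) of 9 of the 10 genes with 5′ UTR sites that had the lowest log2 fold changes and of the 10 that had the highest among those called, with 1 point per sample (3 WT, 3 KO) and lines at the means. The WT and KO points do not overlap in any of the 19 genes shown, which the rule for choosing them required. Log2 fold changes run from −2.52 (Fgf10) to 2.34 (A4galt).

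None of the 10 genes with the most 5′ UTR sites was called, by edgeR's quasi-likelihood test at an adjusted p of 0.01, and their log2 fold changes ran from −0.22 (Mbtps1 and Rnf168) to 0.59 (Ptp4a3, adjusted p = 0.0516). Brd2 had 239, 258 and 246 CPM in WT and 234, 266 and 213 CPM in KO (log2 −0.06, SE 0.11, adjusted p = 0.686). Irf2bpl, with 67.6, 61.6 and 67.9 CPM in WT and 101.5, 98.2 and 75.5 CPM in KO, missed the threshold (log2 0.48, adjusted p = 0.0111). At an unadjusted p under 0.05, 2 of the 10 were higher and 0 lower, and DESeq2 called 1. By edgeR with the replicate as a block, Irf2bpl and Ptp4a3 were called. Of the 43 genes with 3 or more sites, 8 were called (18.6%, against 29.7% of all genes), 6 higher and 2 lower, and the difference in share was not tested.

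Among the 10 sites of highest score, Fem1c rose (log2 0.84, adjusted p = 0.000124), while Sap30 (−0.89, adjusted p = 0.000325) and Slc20a2 (−0.50, adjusted p = 0.00501) fell. Fem1c had 71.6, 65.9 and 75 CPM in WT and 126.3, 126.1 and 128.5 CPM in KO. The other 7 were not called, with log2 fold changes from −0.41 (Fgfr1, adjusted p = 0.0101) to 0.37 (Fuca1, adjusted p = 0.0215). The Slc20a2 call was lost with scaling by library size and without any 1 of the KO replicates, and Fgfr1 was called by DESeq2, with the replicate block and without WT replicate 3. Of all genes tested 29.7% were called, 17.1% higher and 12.6% lower. These 10 genes likewise included some that rose, some that fell and some that did not pass the test.

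Of the 23 genes of the pathway lists with a 5′ UTR site, 7 were called (30.4%), a share near the 29.7% of all genes. Eif4g3, a scaffold of cap-dependent initiation, had 37.2, 40.3 and 37.1 CPM in WT and 88.4, 102.8 and 68.8 CPM in KO and rose by 1.18 on the log2 scale (SE 0.14, adjusted p = 0.000159). Its only site was at gtcctgccGGACTgctggagg (chr4:137993456-137993476, plus strand), 10 nt from an annotated start. Jun, an immediate early transcription factor, rose by 1.16 (SE 0.26, adjusted p = 0.00473) from 9.21, 5.90 and 4.82 CPM to 19.1, 13.0 and 12.3 CPM, and was not called without WT replicate 2 or KO replicate 1. E2f1, a transcription factor of S-phase entry, rose by 0.47. Igf2bp3, which binds m6A-containing mRNA, fell by 0.74 on the log2 scale (SE 0.12, adjusted p = 0.000716), from 126.5, 123.6 and 150.7 CPM to 77.3, 88.3 and 75 CPM. Cdkn1b, which encodes an inhibitor of cyclin-dependent kinases, fell by 0.61, the histone demethylase gene Kdm5a fell by 0.43 and Cdk2 fell by 0.42 on the same scale. The calls for E2f1, Cdkn1b, Kdm5a and Cdk2 were each lost without 1 of several libraries. Those for Cdkn1b, Kdm5a and Cdk2 were also lost with scaling by library size, those for Kdm5a and Cdk2 without the filter on low counts, and that for Kdm5a with a minimum of 10 counts in every library.

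Of all genes tested 17.1% were called higher and 12.6% lower, beside which the lists were counted. Within the whole lists, writers had 6 of 8 genes higher and none lower, readers 3 higher and 1 lower of 8, and erasers and cap enzymes 1 lower of 4. Of eIF3 and Abcf1, 6 of 15 were lower and none higher. Initiation factors had 2 of 21 higher and 3 lower, the stress response list 1 of 12 higher and 2 lower, and heat shock genes 1 of 16 higher and 1 lower. Pluripotency genes had 2 of 22 higher and 5 lower, chromatin regulators 7 of 55 higher and 8 lower, Wnt genes 9 of 27 higher and 2 lower and cell cycle genes 4 of 26 higher and 10 lower. Of immediate early and MYC genes 3 of 14 were higher and 2 lower, and of SR splicing factors none of 12 was higher and 2 were lower. By edgeR, at an unadjusted p under 0.05, 1 writer was lower, which DESeq2 called as well, and of erasers and cap enzymes, eIF3 and Abcf1, and SR splicing factors 0 were higher, with 0 called higher by DESeq2.

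The genes of chromosome 8 were lower as a group. Its 829 tested genes had a median of −0.44, with 34.6% called lower and 7.36% called higher. It holds 22 of the genes with 5′ UTR sites, among them Prkaca, Sap30 and Slc20a2, and 8 of the 22 fell and none rose in edgeR's test, with 0 higher at an unadjusted p under 0.05 and 0 higher by DESeq2. Whether their chromosome or their sites have a part in this was not tested. Without that chromosome 130 of 415 genes with 5′ UTR sites were called (31.3%).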

How the data were processed

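miCLIP2 sites and RNA-seq counts of mESCs were analysed. Per the labels and the methods, the authors trimmed and aligned the miCLIP2 reads with STAR 2.7.3a to GRCm38, collapsed PCR duplicates with UMI-tools 1.0.0, called peaks with PureCLIP and scored peaks at A with m6Aboost, which takes the surrounding sequence, the transcript region, the relative signal and C-to-T changes as inputs. The deposited site lists hold position, strand and a score from 0.5 to 1 with replicates pooled. For RNA-seq, the authors aligned with STAR 2.6.1b and deposited raw counts per gene from HTSeq 0.12.4 (reverse stranded, GENCODE release 23). Lines that name no gene (36.7 to 42.7% of all counts) were left out.

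Sites were placed on the longest coding transcript of each gene (GENCODE release 21 on GRCm38; 98.1% of gene IDs matched), and 211 sites in such transcripts of several genes were left out. KO was compared with WT by edgeR 4.0.16 in R 4.3.3 (filterByExpr, TMM, quasi-likelihood test, Benjamini-Hochberg adjustment over 15731 genes, threshold 0.01), 3 samples each. Nothing says whether these were separate cultures, so p-values measure the spread between these samples. The fit was tested on simulated data. DESeq2 1.42.0 was an alternative. Deviations of same-numbered WT and KO samples correlated at 0.122, 0.464 and 0.303, so the numbers, which come from the labels, were taken as pairs in a fit with a block. Shares have 95% Wilson intervals (SciPy 1.17.1). Upstream open reading frames were ATG-initiated frames of the 5′ UTR other than in-frame extensions of the CDS.

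Genes named were those with the most 5′ UTR sites (10), the sites of highest score (10, and 8 also in heart), those nearest to the cap and the start codon (5 each), the called genes with the 10 highest and 10 lowest log2 fold changes (mean count of 100 or more, groups apart), Mettl3 and the genes of the lists. A gene that this rule names is not reported here. Others named, such as Ung, Sox11 and Fgd1, were chosen after their values were seen. The members, lists and tests were chosen with earlier results of these data known. Site lists of HEK293T and of the smaller heart inputs below 300 ng were not used here.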

Additional observations from a re-analysis of the deposited data

How the results depend on the processing

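The number of genes with 5′ UTR sites called in KO against WT was 138 and stayed within 1.5 times of that with DESeq2 (160), DESeq2 size factors (139), scaling by library size (124), no filter on low counts (176) and a minimum of 10 counts in every library (134). The DESeq2 and the blocked fit shared all 138 calls. The shares were not stable in the same way. With DESeq2 36.5% of these genes were called against 17.5% of all 31057 genes, and without the filter 40.2% against 20.6%. Both fits kept genes of low counts among all genes, so the closeness of the shares depends on the filter. With the replicate block it was 214 (all genes 6837), and at an adjusted p of at most 0.05 it was 212 (all genes 7336, against 4669 at 0.01). Leaving out 1 library at a time gave 80 to 159 genes with 5′ UTR sites and 2761 to 5412 of all genes. Their median log2 fold change of −0.016 became 0.092 with library size scaling, 0.020 without the filter, and −0.056 to 0.019 when 1 library was left out, so that its sign is not settled. The block called Mettl3, Alkbh5, Eed, Fgfr1, Irf2bpl, Ppp1r15b, Ptp4a3 and Rest in addition and lost no call of a named gene. None of the named log2 fold changes of called genes reversed.

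A minimum score of 0.75 left 56 sites, of which 100% were in DRACH, and the sequence is an input of that score. Of the 50 tested genes that held them, 11 were called (22.0%, against 29.7% of all genes). Sites in RRACH made up 84.9% of the 636. At least 50 nt from starts, the median cap distance was 321.5 nt and the heart share 47.5%. The other choices of transcript, isoform and start distance kept the number of sites within 1.5 times of 636 and the DRACH share and both distances within their intervals. The share of 5′ UTR DRACH motifs with a site (1.71%) was 1.38% at 1 CPM, 2.94% at 50 CPM, 0.158% with the score minimum, 3.65% for GGAC motifs and, added after seeing the data, 2.235% in genes with a CDS or 3′ UTR site. The heart share was 16.0% with the 300 ng list and, added likewise, 51.3% in genes with a heart site. Without chromosome 8, also added, 130 genes were called. Depth limits what an unmarked motif means, since the lists give no coverage.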

Other observations

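Genes whose only sites were in the 5′ UTR included further called genes, named here after their values were seen. Among those that fell were the DNA polymerase subunit gene Pold2 (log2 −0.93), the RNA polymerase II subunit gene Polr2b (−0.66), Cnot10 of the CCR4-NOT deadenylase complex (−0.70), the chaperone gene Bag6 (−0.82), Mta2 of the NuRD complex (−0.53) and the ribosomal protein genes Rpl37a (−0.53) and Rpl27 (−0.46). Among those that rose was Bmp7, a ligand of BMP receptors (1.22). Of the genes with 3 or more 5′ UTR sites, Igsf3 (1.16), Herpud2 (1.04), Cldn4, which encodes a claudin of tight junctions (0.80), and Elmsan1 (0.66) rose, and Zfp740 (−0.57) fell, besides Ajuba, Trim8 and Slc20a2 given above.

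A further 11 sites in 5′ UTRs were under 3 nt from an annotated transcript start, in Dclk2, Jam2, Krr1, Mrpl21, Nf2, Nutf2, Otud4, Psmb7, Scaf4, Snx6 and Tcl1, of which those in Krr1, Nf2 and Snx6 were also listed in heart. Among 211 sites in longest coding transcripts of several genes, 21 were in the 5′ UTR of at least 1 of them, and 996 sites were in no longest coding transcript. In the 1 µg heart list, 838 sites lay in 5′ UTRs, 20771 in CDS and 20569 in 3′ UTRs by the same assignment, before any rule on transcript starts.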
